A study of Danio rerio with 8 samples.

Results

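Cortisol, the main glucocorticoid of teleost fish, acts on larval tissues through the glucocorticoid receptor. The genes described here are this receptor (nr3c1), the mineralocorticoid receptor (nr3c2), the well-known glucocorticoid-responsive genes fkbp5, klf9, tsc22d3 and pck1, and the cortisol-inactivating enzymes hsd11b2 and hsd20b2. Members were the array probes whose accession belongs to 1 of these 8 genes by RefSeq symbol. These 8 stand among 13293 genes named on the array. Their probes were 15 of the 43603 zebrafish probes and covered 7 genes, since no probe was matched to hsd20b2. There were 3 probes for nr3c1, 3 for tsc22d3, 2 each for fkbp5, klf9, pck1 and hsd11b2, and 1 for nr3c2.

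The samples were whole zebrafish larvae at 96 h post-fertilization in 3 groups: unexposed controls (2 arrays), larvae exposed to zinc oxide nanoparticles (ZnO NPs, 2.64 mg/L, 3 arrays) and larvae exposed to dissolved zinc sulfate (ZnSO4, 7.75 mg/L, 3 arrays). Both concentrations were chosen as those lethal to the same fraction of larvae, so survivors of a partly lethal exposure were compared with controls. Each array held Cy3-labelled RNA of larvae pooled from 1 vessel, and all larvae, controls included, were anesthetized with tricaine before RNA extraction. No strain, sex or transgene was named, and p-values measure the spread between these pools only.

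In its resting state the glucocorticoid receptor sits in the cytoplasm in a complex with the chaperone Hsp90 and its partners. Cortisol binding moves it to the nucleus, where it binds DNA and raises transcription of genes such as fkbp5 and klf9. Fkbp5, a co-chaperone of Hsp90, lowers the affinity of the receptor for hormone and so closes a short negative feedback loop. Cortisol is made in the interrenal gland of fish under the control of corticotropin-releasing hormone and adrenocorticotropin, and 11-beta-hydroxysteroid dehydrogenase type 2, the product of hsd11b2, turns it into inactive cortisone.

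Between 77.5% and 85.8% of probes per array were well above background, no spot was saturated, and any 2 arrays correlated with r of 0.989 to 0.996 over the tested probes. All 15 member probes were well above background on all 8 arrays. The barcode in each file header holds 2 position numbers, and arrays that share the first number are called a side here. The word is only a label for that number. Side 1 held the controls with the ZnO NP replicates 1 and 2. Side 2 held all ZnSO4 arrays with ZnO NP replicate 3, and control and ZnSO4 thus had no side in common. A whole larva mixes tissues, and fewer cells of a type and less RNA per cell cannot be told apart.

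Levels are given as scaled signals, which are processed intensities after each array's 75th percentile was set to a common value, in arbitrary units. Signals of different probes were not compared with each other, since probes differ in binding. A probe was called where the limma test across all 34616 tested probes gave a Benjamini-Hochberg adjusted p under 0.05 together with a fold of 1.5 or more. No member probe was called for ZnO NPs against control, where 0.0433% of tested probes were, nor for ZnSO4 against control, where 0.0231% were. None was called for the mean of both treatments against control, against 0.0722% of all tested probes, and the comparison of ZnO NPs with ZnSO4 gave no call on the array (0%). At an unadjusted p under 0.05, 7 of the 15 probes differed from control for ZnO NPs and 7 for ZnSO4, all of them higher in the treated larvae. The same unadjusted threshold was passed upward by 15.1% and 9.16% of all tested probes. With the fold of at least 1.5 added, the 4 probes of fkbp5 and klf9 passed in both treatments, where 2.1% of all tested probes passed upward for ZnO NPs and 1.39% for ZnSO4.

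For the glucocorticoid receptor itself no nr3c1 probe was called, and the log2 fold changes against control were at most 0.29. The nr3c1 probe with the highest mean signal (A_15_P190681) read 428 and 486 in controls, 520, 592 and 486 with ZnO NPs, and 495, 520 and 443 with ZnSO4. The ZnSO4 values overlapped the controls, and ZnO NP replicate 3 equalled the higher control to the nearest whole unit. The log2 fold change was 0.22 ± 0.11 (SE) for ZnO NPs (limma adjusted p = 0.268) and 0.09 ± 0.11 for ZnSO4 (limma adjusted p = 0.702).

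A further nr3c1 probe (A_15_P194346) read 358 and 379 in controls, 416, 453 and 416 with ZnO NPs and 431, 455 and 391 with ZnSO4. All 6 treated arrays lay above both controls. The log2 fold change of this probe was 0.22 for ZnO NPs (limma unadjusted p = 0.0413, limma adjusted p = 0.184). For ZnSO4 it was 0.21 (limma unadjusted p = 0.0485, limma adjusted p = 0.269). The last nr3c1 probe (A_15_P644946) ranged from 197 to 234 in controls, from 249 to 279 with ZnO NPs and from 205 to 272 with ZnSO4. All 3 nr3c1 probes were thus within 0.29 log2 units of control in either treatment. The 3 probes correlated with each other at r of 0.83 to 0.90 over the 8 arrays.

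The mineralocorticoid receptor, which in fish also binds cortisol, was represented by a dim probe. nr3c2 (A_15_P142141) read 67.1 and 104 in controls, 103, 108 and 95.4 with ZnO NPs, and 112, 115 and 79.5 with ZnSO4. The control arrays lay 0.63 log2 units apart, more than either treatment lay from their mean, and the groups overlapped. The log2 fold change was 0.29 ± 0.22 for ZnO NPs (limma adjusted p = 0.431) and 0.27 ± 0.22 for ZnSO4 (limma adjusted p = 0.530). The 95% confidence interval of the fold, 0.857 to 1.74 for ZnO NPs, leaves room for differences in both directions.

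**Figure D1:**
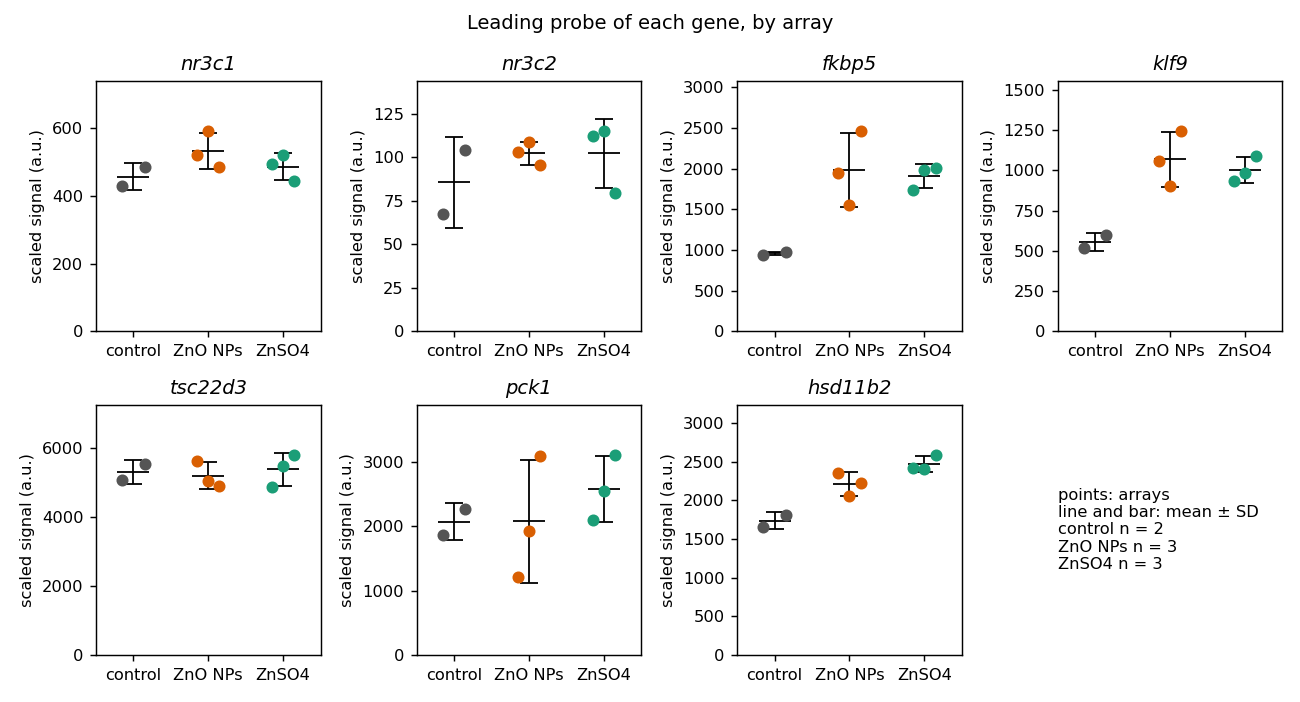
Scaled signal (arbitrary units, linear axis from 0) of the probe with the highest mean signal of each of the 7 genes on the 2 control, 3 ZnO NP and 3 ZnSO4 arrays, with points for arrays and lines for the group mean ± SD. For fkbp5, klf9 and hsd11b2 all 6 treated arrays lie above both controls, while the groups of nr3c2, tsc22d3 and pck1 overlap.

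On its brighter probe (A_15_P365290), fkbp5 was at about 2-fold the control level in both zinc treatments. This probe read 940 and 972 on the control arrays. With ZnO NPs it read 1946, 1549 and 2461, and with ZnSO4 1739, 1986 and 2001. The lowest treated array lay far above the higher control, and the controls differed by 0.05 log2 units. The group means were 956 ± 22.5 (SD, n = 2), 1985 ± 457 (SD, n = 3) and 1908 ± 147 (SD, n = 3), with the widest spread among the ZnO NP arrays.

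The log2 fold change of this fkbp5 probe was 1.03 ± 0.18 (SE) for ZnO NPs, a fold of 2.04 with a 95% confidence interval of 1.53 to 2.72 (limma adjusted p = 0.0887). For ZnSO4 it was 0.99 ± 0.18, a fold of 1.99 (1.49 to 2.66, limma adjusted p = 0.126). It ranked 210 and 179 of the 34616 tested probes by p, and neither comparison passed the adjusted threshold. The dimmer fkbp5 probe (A_15_P695676) read 194 and 277 in controls, 403, 334 and 458 with ZnO NPs, and 329, 409 and 352 with ZnSO4. It too was higher on all 6 treated arrays, by 0.77 and 0.64 log2 units, with control arrays 0.51 log2 units apart.

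klf9 encodes a Krüppel-like transcription factor that the glucocorticoid receptor activates directly and that in turn represses other receptor targets in mammals. Its brighter probe (A_15_P735206) read 515 and 596 in controls, 1056, 905 and 1245 with ZnO NPs, and 932, 984 and 1092 with ZnSO4. All treated arrays lay above both controls. The log2 fold change was 0.94 ± 0.14 for ZnO NPs (fold 1.91, 95% confidence interval 1.51 to 2.42, limma adjusted p = 0.0876) and 0.85 ± 0.14 for ZnSO4 (fold 1.81, 1.43 to 2.28, limma adjusted p = 0.117).

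The other klf9 probe (A_15_P146191) read 387 and 395 in controls, 733, 645 and 925 with ZnO NPs, and 689, 801 and 803 with ZnSO4. It gave log2 fold changes of 0.96 for ZnO NPs (limma adjusted p = 0.0876) and 0.96 for ZnSO4 (limma adjusted p = 0.113). The 2 klf9 probes correlated at r = 0.98 over the 8 arrays, and their controls differed by 0.21 and 0.03 log2 units.

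hsd11b2, the enzyme that inactivates cortisol, was also higher on every treated array, by less than the fold of 1.5. Its brighter probe (A_15_P100202) read 1659 and 1811 in controls, 2355, 2056 and 2220 with ZnO NPs, and 2417, 2404 and 2587 with ZnSO4. The 3 ZnO NP arrays lay between the controls and the 3 ZnSO4 arrays without overlap. The fold was 1.27 for ZnO NPs (log2 fold change 0.35 ± 0.09, limma adjusted p = 0.108) and 1.42 for ZnSO4 (log2 fold change 0.51 ± 0.09, limma adjusted p = 0.117). The other probe (A_15_P768186) read 1299 and 1613 in controls, 2051, 1734 and 1937 with ZnO NPs, and 1843, 1990 and 2200 with ZnSO4, so that its treated groups overlapped each other but not the controls.

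**Figure D2:**
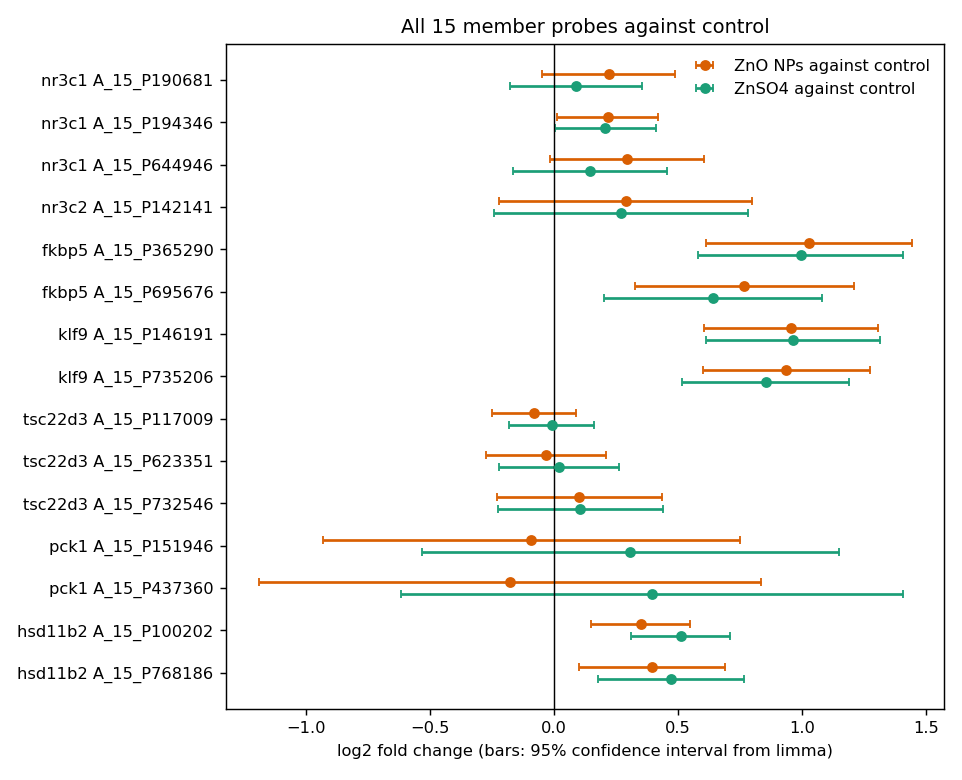
Log2 fold change against control (x axis) of all 15 member probes for ZnO NPs and ZnSO4, with bars for the unadjusted 95% confidence interval from limma. The intervals of the fkbp5, klf9 and hsd11b2 probes exclude 0 in both treatments, and those of nr3c2, tsc22d3 and pck1 include it. Of nr3c1, the probe A_15_P194346 narrowly excludes 0 in both treatments (lower ends 0.011 and 0.0017), and the other probes include it.

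tsc22d3, which encodes the glucocorticoid-induced leucine zipper protein and is a classical receptor target in mammals, lay near the control level. Its brightest probe (A_15_P623351) read 5072 and 5548 in controls, 5642, 5059 and 4895 with ZnO NPs, and 4860, 5487 and 5810 with ZnSO4. The groups overlapped. The fold was 0.978 for ZnO NPs (95% confidence interval 0.827 to 1.16, limma adjusted p = 0.870) and 1.01 for ZnSO4 (0.856 to 1.2, limma adjusted p = 0.943). The other 2 probes, A_15_P117009 and A_15_P732546, differed from control by -0.08 to 0.11 log2 units across both treatments. For ZnO NPs, the interval of the brighter fkbp5 probe, 1.53 to 2.72, and that of the brightest tsc22d3 probe did not overlap. The intervals of the dimmer fkbp5 probe and of the tsc22d3 probe A_15_P732546 did overlap. A difference between the genes was not tested.

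pck1 encodes cytosolic phosphoenolpyruvate carboxykinase, the enzyme that commits substrates to glucose synthesis in liver and a receptor target there. Its brighter probe (A_15_P151946) read 1866 and 2277 in controls, 1210, 1928 and 3095 with ZnO NPs, and 2092, 2550 and 3114 with ZnSO4. The ZnO NP arrays spanned both sides of the controls, with replicate 1 the lowest and replicate 3 near the highest of all 8. The log2 fold change was -0.09 ± 0.36 for ZnO NPs (limma adjusted p = 0.890) and 0.31 ± 0.36 for ZnSO4 (limma adjusted p = 0.669). The other probe (A_15_P437360) read 506 on ZnO NP replicate 1 and 1551 on replicate 3, and the 2 probes correlated at r = 0.99 over the 8 arrays, so both probes carried the spread. The summed signal of 6 probes of liver markers was likewise lowest on ZnO NP replicate 1 (244096) and stood at 308063 and 338797 on replicates 2 and 3, against 384361 and 389902 in controls and 337926 to 347957 with ZnSO4. Most of this sum is the marker apoa2 (A_15_P110799), at 238430 to 262022 in controls, 135125 to 205362 with ZnO NPs and 206647 to 213287 with ZnSO4. With ZnSO4 the probes of the marker fgb lay 0.02 to 0.18 log2 units above control, while those of apoa2 and fabp10a lay below. The part of the liver markers in the pck1 spread was not tested.

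**Figure D3:**
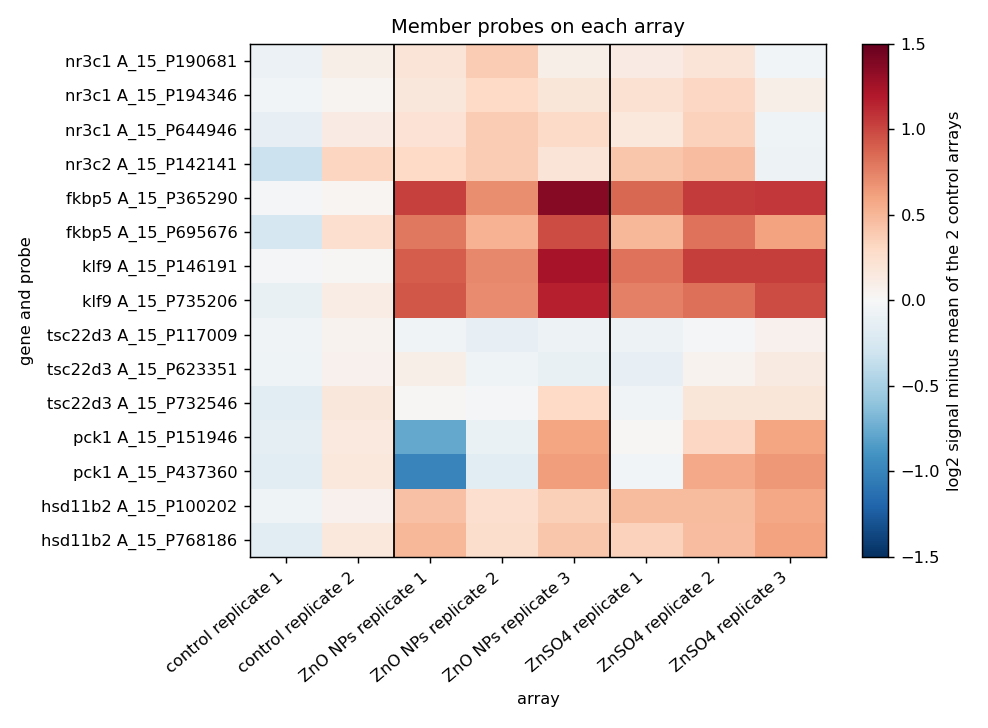
Log2 signal of each of the 15 member probes (rows) on each of the 8 arrays (columns), minus the mean of the 2 control arrays, from blue (lower) to red (higher). The 4 fkbp5 and klf9 rows are red on all 6 treated arrays and deepest on ZnO NP replicate 3, and the 2 pck1 rows run from blue on ZnO NP replicate 1 to red on replicate 3.

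The 2 forms of zinc were compared directly at the concentrations used, which differ in mass of compound. The paper's estimates of these lethal concentrations in terms of measured zinc lie close together, with wide 95% confidence intervals. It gives no zinc measured in the vessels used for RNA. The fold of ZnO NPs over ZnSO4 was 1.02 for fkbp5 (A_15_P365290, 95% confidence interval 0.792 to 1.32, limma adjusted p = 0.973) and 1.06 for klf9 (A_15_P735206, 0.859 to 1.31, limma adjusted p = 0.911). These intervals still allow a difference in either direction. For hsd11b2 (A_15_P100202) the fold was 0.894 (0.790 to 1.01, unadjusted p = 0.0693, limma adjusted p = 0.809). It was the 1 member probe without overlap on the lower side between the treatments, as were 5.43% of all tested probes. pck1 had the widest interval of the leading probes, 0.449 to 1.28 around a fold of 0.757. Side 2 held all ZnSO4 arrays but only replicate 3 of ZnO NPs, so the comparison is partly mixed with side. On side 2, that replicate minus the ZnSO4 mean was 0.37 and 0.34 log2 units for the fkbp5 probes. It was 0.32 and 0.28 for klf9, -0.15 and -0.05 for hsd11b2, and 0.28 and 0.23 for pck1. The part of side was not tested.

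Counted by overlap, 9 of the 15 probes read higher on all 3 ZnO NP arrays than on both controls, as did 23.7% of all tested probes, and no member read lower on all of them (18.2% of all tested probes). For ZnSO4, 7 of 15 were higher without overlap (19.6% of all tested probes) and none lower (19.6%). The 9 were the fkbp5, klf9, hsd11b2 and nr3c1 probes, and probes of the same gene are not independent counts. Among them, nr3c1 A_15_P190681 counted narrowly, at 485.98 on ZnO NP replicate 3 against 485.69 on control replicate 2. The median log2 fold change of the 15 probes was 0.29 for ZnO NPs and 0.31 for ZnSO4, against 0.03 and 0.02 over all tested probes. The treatments share the 2 control arrays, so the treatments' values against control are not independent of each other.

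For ZnSO4, blocking on side gave smaller differences of fkbp5 and klf9. That of hsd11b2 (A_15_P100202) stayed near its unblocked 0.51 log2 units. On the side that held both controls and ZnO NP replicates 1 and 2, the log2 difference between ZnO NPs and control was 0.86 and 0.66 for the 2 fkbp5 probes, 0.82 and 0.81 for the klf9 probes A_15_P735206 and A_15_P146191, and 0.34 and 0.38 for hsd11b2. With the side as a block, the log2 fold change for ZnSO4 was 0.49 for fkbp5 (A_15_P365290, limma adjusted p = 0.635), 0.50 for klf9 (A_15_P735206, limma adjusted p = 0.624) and 0.50 for hsd11b2 (A_15_P100202, limma adjusted p = 0.559). The pck1 value (A_15_P151946) turned to -0.71. That fit links ZnSO4 to the controls only through ZnO NP replicate 3, which had the highest fkbp5 and klf9 signals of the 8 arrays.

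Leaving out control replicate 2, which left 1 control array, changed the calls. Without control replicate 2, limma called 4 member probes for ZnO NPs, those of fkbp5 and klf9, and 1 for ZnSO4 (klf9 A_15_P735206), among 1662 and 907 calls over the whole array (4.8% and 2.62% of all tested probes). That fit takes the spread of the remaining control from the treated groups.

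fkbp5 and klf9 varied together from array to array. Over the 8 arrays fkbp5 (A_15_P365290) and klf9 (A_15_P146191) had the same rank order, with Spearman's rho of 1 and Pearson's r of 0.996, a value in which the distance between control and treated arrays takes part. Over the 6 treated arrays alone r was 0.977. That klf9 probe was picked for its highest r with fkbp5. The leading klf9 probe (A_15_P735206) gave an r of 0.987 over the 8 arrays and 0.945 over the treated arrays. After klf9, the genes with the most similar pattern to fkbp5 were lpin1a, a phosphatidate phosphatase of lipid synthesis (r = 0.986, and 0.90 over the treated arrays), and slc3a2b, a subunit of amino acid transporters (r = 0.986, and 0.909). Such values were common, since 459 of the 34616 tested probes had an r of at least 0.9 with fkbp5. Arrays share scaling and RNA pools, and the correlations are descriptions.

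hsd11b2 (A_15_P100202) followed fkbp5 less closely. Its r with the leading fkbp5 probe was 0.87 over the 8 arrays and 0.27 over the 6 treated arrays, and with the leading klf9 probe 0.88 and 0.18. The order of treated arrays thus differed between this hsd11b2 probe and the leading fkbp5 and klf9 probes. The other hsd11b2 probe was not compared with them. The leading probes of tsc22d3 and fkbp5 had an r of 0.01 over the 8 arrays, and the other tsc22d3 probes were not compared with fkbp5.

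The leading nr3c1 probe did not rise and fall with the leading fkbp5 probe, and the other nr3c1 probes were not compared with fkbp5. The r of nr3c1 (A_15_P190681) with fkbp5 was 0.28 over the 8 arrays and -0.62 over the 6 treated arrays, and with nr3c2 it was 0.80 and 0.72. The genes most like nr3c1 were hic2, a zinc finger transcriptional repressor (r = 0.990), sptan1, which encodes alpha spectrin (r = 0.988), and cntn1b, a neuronal adhesion protein (r = 0.987), and 656 tested probes had an r of at least 0.9 with it.

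**Figure D4:**
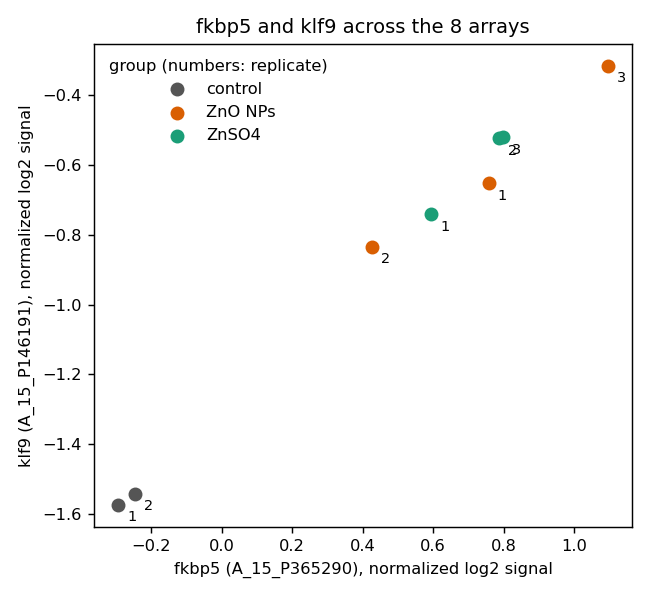
Normalized log2 signal of klf9 (A_15_P146191, y axis) against fkbp5 (A_15_P365290, x axis) on the 8 arrays, colored by group and numbered by replicate. The 2 control arrays lie together at the lower left, and the 6 treated arrays, with an r of 0.977 among them, run up to ZnO NP replicate 3.

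Beyond these genes, 8 hand-written lists covered 114 genes of the cortisol axis, the receptor complex, other targets and the clock. No probe of any list was called in either treatment, and the counts that follow are of probes past an unadjusted p under 0.05 with a fold of at least 1.5, a threshold passed upward by 2.1% and 1.39% of all tested probes for ZnO NPs and ZnSO4 and downward by 0.953% and 1.01%.

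Of the 10 genes of the brain and pituitary axis, 5 were tested with 14 probes, none passed in either treatment, and the list's median log2 fold change was 0.14 for ZnO NPs and 0.05 for ZnSO4. The 3 probes of crhbp, the binding protein of corticotropin-releasing hormone, differed from control by 0.14 to 0.22 log2 units for ZnO NPs and by 0.07 to 0.14 for ZnSO4. crhb, the corticotropin-releasing hormone gene, and pomca, the precursor of adrenocorticotropin, were named for their role after their values were seen. The crhb probes differed from control by -0.01 to 0.09 log2 units across both treatments and the tested pomca probe by 0.06 and 0.18. avp (A_15_P105439), which encodes vasotocin, read 1662 and 1401 in controls, 1905 to 2225 with ZnO NPs and 1928 to 2263 with ZnSO4, a log2 difference of 0.45 for the mean of both treatments (limma adjusted p = 0.0912). All 6 treated arrays lay above both controls for avp.

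Of 15 genes of cortisol synthesis, 7 were tested with 11 probes. None passed for ZnO NPs and 2 passed upward for ZnSO4. These were star (A_15_P366845), the carrier of cholesterol into mitochondria, at 0.65 log2 units, and cyp17a1 (A_15_P285131), a steroid hydroxylase, at 0.65. Their controls were far apart. star read 175 and 324 in controls and 323 to 428 on the 6 treated arrays. This cyp17a1 probe read 153 and 83.7 in controls and 152 to 200 on the treated arrays. For each of these probes 1 control thus lay at or beside the treated range. A brighter cyp17a1 probe (A_15_P549682) did not pass, at 1267 and 704 in controls and 949 to 1396 on the treated arrays. In the list of 6 genes written for cortisol conversion, which includes hsd11b2, 9 probes of 4 genes were tested and none passed. Besides hsd11b2 and hsd11b1la, the tested genes were hsd17b12a and hsd17b12b, which are not known as cortisol-converting enzymes. hsd11b1la, a relative of the cortisone-reducing enzyme, ranged from -0.06 to 0.16 log2 units of control over its 2 probes.

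Chaperones of the receptor complex had median log2 fold changes of -0.11 for ZnO NPs and -0.13 for ZnSO4. All 12 genes were tested with 40 probes. None passed upward, 4 passed downward for ZnO NPs and 5 for ZnSO4, and 19 and 24 of the 40 probes were lower without overlap, where 18.2% and 19.6% of all tested probes were. The probes that passed belong to hsp90aa1.1, the heat-inducible Hsp90 that in zebrafish is needed for muscle fibre assembly, and dnaja1, an Hsp40 co-chaperone.

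hsp90aa1.1 (A_15_P729036) read 20737 and 14103 in controls, 8981 to 10500 with ZnO NPs and 9947 to 11477 with ZnSO4, a log2 difference of -0.76 for the mean of both treatments (limma adjusted p = 0.0847). Its probes may also bind the closely similar hsp90aa1.2. dnaja1 (A_15_P193466) read 729 and 556 in controls, 361 to 427 with ZnO NPs and 260 to 330 with ZnSO4, a log2 difference of -0.89 (limma adjusted p = 0.0627). In contrast, the constitutive hsp90ab1 lay between -0.05 and -0.20 log2 units over 7 probes, and fkbp4, the Hsp90 partner that opposes Fkbp5, between -0.13 and -0.25 over 2 probes. Summed skeletal muscle marker signals were 1482920 and 1540540 in controls, 1364030 to 1429780 with ZnO NPs and 1298120 to 1433720 with ZnSO4, and their part in the chaperone values was not tested.

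Among 11 genes of receptor coregulators, 3 were tested with 10 probes, and none passed. ncor1 (A_15_P117750), a corepressor, read 174 and 200 in controls, 202 to 232 with ZnO NPs and 214 to 232 with ZnSO4. Its brighter probe A_15_P625896 also lay above both controls on all treated arrays. Its other probes were dimmer and overlapped the controls, except A_15_P734641 with ZnO NPs. That dim probe read 16.7 and 28.4 in controls and 28.5, 37.7 and 71.8 with ZnO NPs.

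The list of other glucocorticoid targets held 28 genes, 26 of them tested with 64 probes. With ZnO NPs 4 probes passed upward and 2 downward, and with ZnSO4 7 upward and 3 downward, while the list's median log2 fold change was 0.07 and 0.06. In both treatments the upward ones held 3 probes of mt2, the metallothionein that zinc itself induces through the sensor Mtf1. The remaining upward probe for ZnO NPs was of igfbp1a (A_15_P725096), a secreted binding protein of insulin-like growth factors. For ZnSO4 a different igfbp1a probe (A_15_P105778), 2 probes of its paralog igfbp1b and 1 of tat, tyrosine aminotransferase, passed. mt2 (A_15_P105247) read 20110 and 16107 in controls, 25532, 32966 and 45003 with ZnO NPs, and 36691, 34845 and 37983 with ZnSO4, a log2 difference of 0.96 for the mean of both (limma adjusted p = 0.0847).

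igfbp1a (A_15_P105778) read 2684 and 2832 in controls, 3419 to 5272 with ZnO NPs and 3597 to 4989 with ZnSO4. The downward probes were in both treatments of per1b, a clock gene, and socs3a, a cytokine signalling inhibitor, and in ZnSO4 alone of ddit4, an inhibitor of mTOR signalling. ddit4 (A_15_P194351) read 290 and 282 in controls, 201 to 247 with ZnO NPs and 146 to 217 with ZnSO4. klf15, a further Krüppel-like receptor target, differed by 0.27 log2 units for the mean of both treatments over the probe with the smaller p (limma adjusted p = 0.0918). The list thus held probes past this threshold in both directions.

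Genes of glucose synthesis, pck1 included, gave 21 tested probes of 8 genes. None passed for ZnO NPs and 1, tat, passed upward for ZnSO4, with medians of 0.08 and 0.28. fbp1b (A_15_P140861), fructose bisphosphatase, read 12088 and 12888 in controls, 8189 to 11337 with ZnO NPs and 10510 to 11797 with ZnSO4. Its brighter probe (A_15_P748816) overlapped the controls in both treatments. That probe read 17863 and 19224 in controls, 12921 to 17892 with ZnO NPs and 16546 to 18885 with ZnSO4. gpt2 (A_15_P741286), an alanine aminotransferase, read 139 and 133 in controls and 170 to 218 on the treated arrays, a log2 difference of 0.48 for the mean of both (limma adjusted p = 0.0799).

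**Figure D5:**
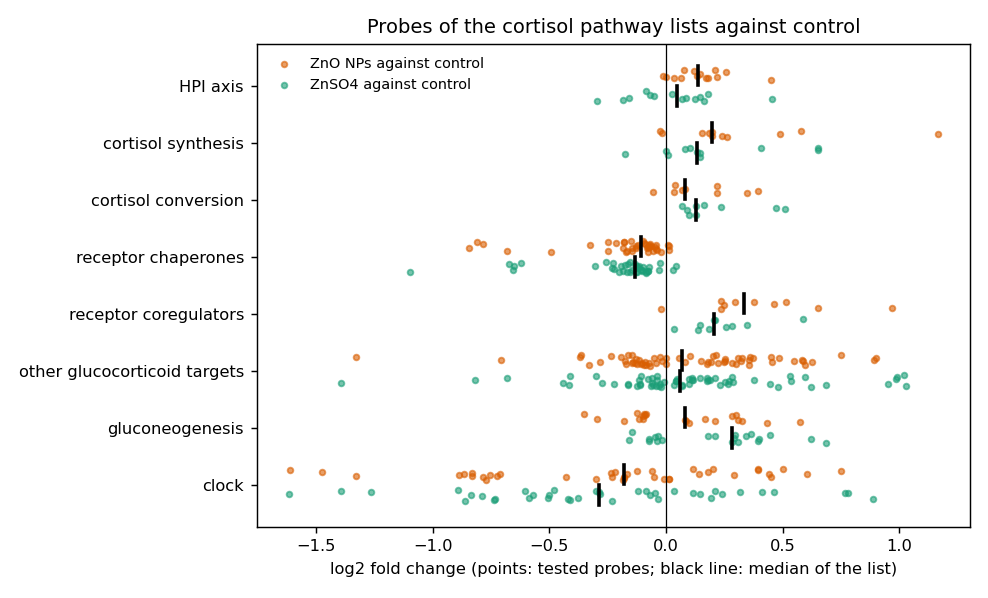
Log2 fold change against control (x axis) of every tested probe in the 8 lists for ZnO NPs and ZnSO4, with a black line at each list's median. The medians of receptor chaperones (-0.11 and -0.13) and clock genes (-0.18 and -0.29) lie below 0, and no single probe was called.

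The clock list bears on the control arrays. klf9 and several clock genes are known as joint targets of glucocorticoids and the daily rhythm. Of 39 tested clock probes of 22 genes, 11 passed downward for ZnO NPs and 9 for ZnSO4, and none upward. per1b (A_15_P104502) read 3077 and 642 in controls and 460 to 684 on the 6 treated arrays, and nr1d2b (A_15_P106438), a Rev-erb repressor, read 14591 and 6043 in controls and 4966 to 5547 when treated. For these 2 probes control replicate 1 stood apart and control replicate 2 lay near the treated arrays.

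The median absolute log2 difference between the 2 controls was 0.55 over clock probes, 0.16 over all tested probes and 0.21 over the 15 members. The controls differed by 0.05 and 0.51 for the fkbp5 probes A_15_P365290 and A_15_P695676, and by 0.03 and 0.21 for the klf9 probes A_15_P146191 and A_15_P735206. For fkbp5, klf9 and hsd11b2 the treated arrays lay above each control taken singly. The part of the clock in the member values was not tested. bhlhe40 (A_15_P100831), a repressor in the clock, read 6207 and 4523 in controls and 2955 to 3510 on the treated arrays, a log2 difference of -0.72 for the mean of both (limma adjusted p = 0.0778). per3 (A_15_P103364), a period gene with a dim probe, read 67.4 and 35.3 in controls and 9.43 to 26.4 on the treated arrays.

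Markers of 10 tissues were summed on each array, and all 86 of their probes were well above background on all 8 arrays. Hatching gland markers were lower on all treated arrays, at 48185 and 31923 in controls, 13271 to 21558 with ZnO NPs and 10919 to 20938 with ZnSO4, and all 8 of its probes were lower without overlap in each treatment, where 18.2% and 19.6% of all tested probes were. Markers of ionocytes, the salt-transporting cells of larval skin, summed to 13497 and 15288 in controls, 10477 to 11957 with ZnO NPs and 11187 to 12519 with ZnSO4. The sum is carried by atp1b1b, a sodium pump subunit, while slc12a10.2, a sodium chloride cotransporter, read higher with treatment on its probe A_15_P206426, at 33.2 to 46.2 in controls, 59.6 to 77.6 with ZnO NPs and 60.5 to 67.0 with ZnSO4. Kidney markers stood at 8839 and 14462 in controls and 11374 to 14309 when treated. Within this list both probes of slc20a1a, a phosphate transporter, were higher on all 6 treated arrays, by 0.45 to 0.61 log2 units. No probe of slc12a10.2 or slc20a1a was called. Exocrine pancreas markers stood at 191600 and 527303 in controls and 207290 to 388681 when treated.

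The sums of red blood cells (235595 and 345415 in controls, 255570 to 324014 treated), retina (1009600 and 1052320, 948281 to 1072400) and skin (1666080 and 2288700, 1517120 to 1896310) overlapped between controls and treated arrays. Brain markers ran from 10156 to 11928 in controls and from 11397 to 12512 when treated. The part of tissue makeup in the member values was not tested.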

How the data were processed

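RNA of 8 pools of larvae was measured on 1-color Agilent arrays. The authors deposited Feature Extraction output, whose intensities per the file headers had background subtracted and a spatial trend removed, and also log2 values, which was matched to log2 intensities shifted by each array's 75th percentile and centered on each probe's median, and was not used in the main results. The authors' deposited marks of outlier, saturated and well above background spots (other values) were used as given. Version 10.10 of Feature Extraction stands in the submitters' notes, and the file header gives 10.10.1.1.

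Control spots and outliers were removed and repeated spots averaged as log2 values. Of 43603 probes, 34617 passed the filter (well above background throughout 1 or more groups), and 34616 were tested. limma 3.58.1 (R 4.3.3, statmod 1.5.0, data.table version 1.17.8, jsonlite 2.0.0) was fitted to the 3 groups at once (5 residual degrees of freedom, 2.42 prior), with Benjamini-Hochberg adjustment over all tested probes. The number of arrays limits the precision.

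Probes were named by RefSeq accession in NCBI annotation of GRCz12tu (25854 with a symbol). No coordinates or sequences are given. Named genes were all member probes, from each list the called probes or, with none called, the 2 genes with the smallest p for the mean of both treatments, and the 3 genes most correlated with nr3c1 and fkbp5. Other genes named here were picked after their values were seen. The members and lists were chosen with earlier results of these data known. The code was tested on simulated data. Alternatives changed scaling, background correction (normexp, offset 50), filter, test, fold, arrays and blocks. Same-numbered arrays did not deviate together (r of -0.07 to 0.15, against -0.19 to 0.12 for other pairs), so replicate numbers were not used for pairing. The paper's methods state triplicate treatments, and 2 control arrays were used here. The result for 1 gene that the rule for named genes picks is not reported here.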

Additional observations from a re-analysis of the deposited data

Results flagged for a closer look

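A signal appeared in a probe outside the comparisons. Probe A_15_P190686 carries a GenBank accession that the RefSeq gene table does not list and the study's supplementary annotation names nr3c1. Its mean processed signal over 2 spots was 65.4 on ZnSO4 replicate 2 and 44.5 on ZnSO4 replicate 1. On both arrays only 1 of the spots was bright (126 and 83.8) and well above background, and the other read 5.01 and 5.11, like the dim arrays. On the other 6 arrays it lay between 3.12 and 6.25 and was not well above background, ZnSO4 replicate 3 (5.07) and both controls (4.93 and 3.12) included. A further probe of the same accession, A_15_P657206, was dim on all 8 arrays (4.30 to 7.99). The RefSeq-named nr3c1 probe A_15_P190681 read 495 and 520 scaled units on ZnSO4 replicates 1 and 2 and 443 on replicate 3.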

How the results depend on the processing

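No alternative turned the direction of fkbp5, klf9 or hsd11b2 against control. The number of member probes called, 0 in each comparison, moved under these settings. With normexp background correction 2 were called for ZnO NPs (0.133% of all tested probes) and 3 for the mean of both treatments (0.214%), and for that mean 1 was called with probes well above background on all arrays (0.168%) and 3 with only the arrays compared (0.217%). At an unadjusted p, or at the fold without a test, 4 were called in each of the comparisons with control (2.34% to 3.05% and 3.06% to 4.06% of all tested probes). Without adjustment across the tested probes, the LSD comparisons named in the methods gave 4, 4 and 4 (1.08% to 1.46%), and Tukey comparisons 4 (1.33%) and 3 (0.945%). Leaving out 1 array gave 0 to 4 calls (ZnO NPs), 0 to 1 (ZnSO4) and 0 to 5 (mean of both), the highest without control replicate 2 (4.8%, 2.62% and 4.33% of all tested probes). With a replicate block 0 were called, fkbp5 stood at 0.93 and 0.89 log2 units, and no other call changed.

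Near-zero values changed sign. tsc22d3 for ZnO NPs turned to 0.016 (quantile normalization) and 0.010 (side block), with a leave-one-out range of -0.097 to 0.033. For ZnSO4 it turned to -0.044 (median shift), with a range of -0.047 to 0.090. With the side block, pck1 turned to -0.71 for ZnSO4 and 0.28 for ZnO NPs against ZnSO4. Leaving out 1 array moved pck1 for ZnO NPs from -0.43 to 0.24, nr3c2 from -0.028 to 0.61 for ZnO NPs and from -0.047 to 0.59 for ZnSO4, and nr3c1 for ZnSO4 from -0.0023 to 0.18. Between treatments, nr3c2 turned to -0.017 (quantile), -0.0050 (median shift), -0.071 (normexp) and -0.079 (side block), and the leave-one-out ranges were -0.15 to 0.11 for nr3c2, -0.13 to 0.20 for fkbp5, -0.033 to 0.20 for klf9 and -0.12 to 0.0069 for tsc22d3. The cause was not tested. Planned counts of promoter motifs were not run, since no sequences were at hand. The nr3c2 probe was the dimmest member and had a wide interval.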
